A study of Mus musculus with 6 samples.

Results

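Interferon-stimulated genes are the genes that cells switch on after sensing interferon, and 40 of them were listed for study in mouse esophageal organoids, 38 of which had a row among the 32285 genes measured. Mx1 and Mx2 were not analysed here. The list was drawn up after earlier results of these data had shown Ifit3b, Ifit1bl1 and Ifit3 leading a small cell cluster and Ifit1bl1 among the leading genes of Sprr2f-rich cells, so the members count as chosen by their levels across cell layers, which are described below without a test. Comparisons between the sorted groups carry a test.

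Type I and type III interferons bind receptors that signal through the kinases Jak1 and Tyk2 to a transcription factor complex that includes Stat2 and Irf9 and binds a short DNA motif, the interferon-stimulated response element, in front of its target genes. Targets include proteins that bind foreign RNA (the Ifit and Oas families), the ubiquitin-like protein Isg15, sensors of RNA such as Ddx58 (RIG-I) and Ifih1 (MDA5), and regulators such as Irf7 that extend the response. In squamous epithelia these proteins form part of the antiviral defence of keratinocytes, the cells that begin in a basal layer and move outward as they differentiate.

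The organoids were grown from esophageal basal cells of C57B6 mice that were positive for integrin-b1, negative for the dead-cell stain DAPI, and sorted by Cyto-ID, a dye for autophagic vesicles, into Cyto-ID Low and Cyto-ID High. All organoids grew for 15 days in Matrigel in the same medium before single cells were sequenced, so every comparison is between the progeny of the sorted cells and not the sorted cells themselves. Each group had 3 libraries, which carry the labels F2, M3 and F6 in both groups. The labels used here do not say that these are separate animals, so p-values measure the spread between libraries. Libraries of the same label deviated from their group means together, least so for F6. Label pairs are described, but the main tests leave the label out. A replicate block, which adds the label to the fit, is given as an alternative.

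Cells with at least 500 detected genes were kept, 25154 of 26808. The Cyto-ID Low libraries held 3547 cells (F2), 5617 (M3) and 2667 (F6), with medians of 7789, 6080 and 2716 UMIs (unique molecules counted) per cell. The Cyto-ID High libraries held 4356, 4483 and 4484 cells, with medians of 10038, 2357 and 1940.5 UMIs. The 38 genes together gave between 2695 UMIs (Cyto-ID High F6) and 33302 UMIs (Cyto-ID Low F2) per library, so the High F6 library gave the least precise values. Pairs of libraries shared between 0 and 8 cell barcodes. The summed level of 8 basal keratinocyte markers, Krt5, Krt14 and Trp63 among them, lay between 10689 and 20641 CPM (UMIs per 1000000 UMIs). Of 12 immune cell markers, 6 (Ptprc, Tyrobp, Adgre1, Cd207, Nkg7 and Siglech) were at 0 in every library, and the 12 together summed to between 9.35 and 26.8 CPM.

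Cells were divided into 3 layers by the deposited values of the suprabasal keratin Krt13 and the superficial cornified-envelope gene Sprr2f. Cells with Sprr2f above 0 are called Sprr2f-positive. Of the other cells, those with a Krt13 value of 3 or more (19.1 UMIs per 10000) are called Krt13-high and those below it Krt13-low. These are ranges of a continuous measure and not cell types: between 10.8% and 15.4% of cells of a library had a Krt13 value within 0.5 of the boundary. The Sprr2f-positive cells included cells with Krt13 below 3, which were 37.2%, 27.9% and 24.8% of them in Low (F2, M3 and F6) and 48.2%, 18.7% and 30.5% in High. The summed level of the 38 genes in cells with Sprr2f above 0 and up to 3 and Krt13 below 3 varied between libraries. It was 585 CPM (Low F2), 596 CPM (High F2) and 626 CPM (Low M3), nearer to Krt13-low cells than to the whole Sprr2f-positive layer. It was 1005 CPM (Low F6, 74 cells), 1008 CPM (High M3, 45 cells) and 519 CPM (High F6, 25 cells), nearer to the whole layer.

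The motif through which interferon acts stands in front of some of these genes, and the stretches below were chosen because they hold it. Isg15, Ifit1bl1, Ifit3 and Ifit3b were among the genes whose levels differed most between layers. Bst2 had a small mean step from Krt13-low to Sprr2f-positive cells. Oasl1, Irf7 and Ifi44, whose levels also differed strongly between layers, had no match in the windows searched and are not shown. Capitals mark every match to the interferon-stimulated response element, searched on both strands as GAAA, any pair of bases, GAAA. Sequences are from RefSeq (GRCm38.p6), printed 5′ to 3′ on the gene's own strand. Isg15 (chr4:156200845-156200926, minus strand) has overlapping matches that begin 78 bases before its start site. Ifit1bl1 has a pair of annotated start sites with a match 104 bases before one and 23 bases before the other, and the stretch shown (chr19:34599428-34599480, minus strand) belongs to the latter. Ifit3 (chr19:34583343-34583446, plus strand) and Ifit3b (chr19:34607739-34607842, plus strand) have matches that begin 156 and 188 bases before their starts, within 104 bases that are identical in both genes. Bst2 (chr8:71537557-71537632, minus strand) has matches that begin 130 bases before its start.
Isg15: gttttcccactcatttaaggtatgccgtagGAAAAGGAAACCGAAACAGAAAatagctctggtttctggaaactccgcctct
Ifit1bl1: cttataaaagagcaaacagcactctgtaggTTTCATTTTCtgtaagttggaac
Ifit3: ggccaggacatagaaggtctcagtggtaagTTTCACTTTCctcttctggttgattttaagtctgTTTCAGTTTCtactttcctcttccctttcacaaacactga
Ifit3b: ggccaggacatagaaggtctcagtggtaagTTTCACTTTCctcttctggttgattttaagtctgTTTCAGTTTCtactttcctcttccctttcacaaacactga
Bst2: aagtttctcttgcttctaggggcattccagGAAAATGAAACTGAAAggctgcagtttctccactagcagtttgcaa

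Promoter windows of 300 bases (250 before the start site and 50 after) were matched for 30 of the 38 genes. A response-element match stood in 16 of the 30 (53.3%), against 3.99% of all 27025 genes with a window. The motif of interferon gamma signalling, searched as TTCNNNGAA, stood in 6 of the 30 (20%), against 9.55% of all genes. The response element stood in windows of genes with large and with small steps: in 4 of the 7 genes with the largest steps toward Sprr2f-positive cells (Ifit1bl1, Ifit3, Ifit3b and Isg15, not Oasl1, Irf7 or Ifi44), and in Bst2, Ddx58 and Eif2ak2, whose steps were small, but not in Ifi35. Ifit3 and Ifit3b share sequence: 575 distinct stretches of 91 bases, the length used for the comparison, occur in transcripts of both, which is 34.7% of those of Ifit3 and 30.1% of those of Ifit3b. Reads from these stretches match both genes, and how such reads were counted is not given in the sources used here. The separate values of Ifit3 and Ifit3b are uncertain to that extent. No other pair of members shared such a stretch.

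The summed level of the 38 genes was lowest in Krt13-low cells and highest in Sprr2f-positive cells in each of the 6 libraries. In Krt13-low cells it was 456, 466 and 444 CPM in Cyto-ID Low (F2, M3 and F6) and 397, 488 and 250 CPM in Cyto-ID High. In Krt13-high cells it was 798, 710 and 765 CPM in Low and 672, 585 and 363 CPM in High. In Sprr2f-positive cells it was 1441, 1569 and 1168 CPM in Low and 1143, 1293 and 520 CPM in High. The High F6 library was the lowest of its group in all 3 layers.

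**Figure D1:**
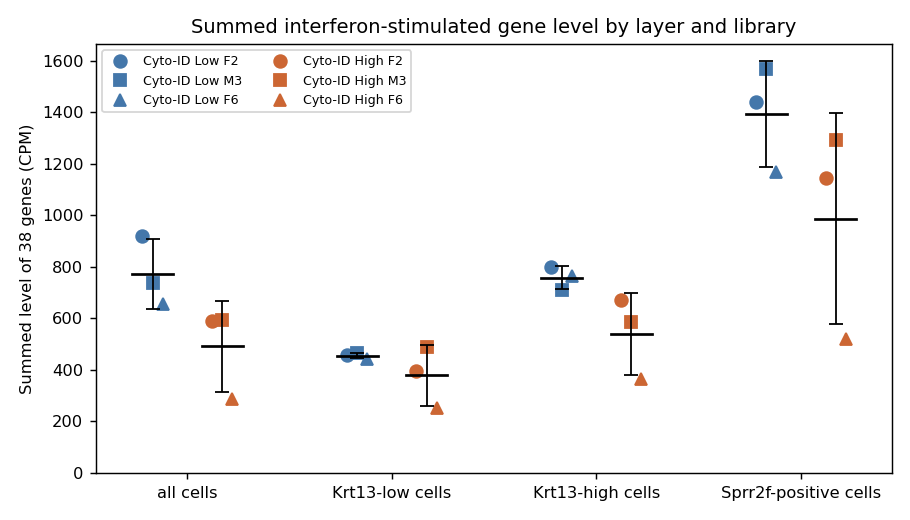
Summed level of the 38 interferon-stimulated genes (vertical axis, CPM) in all cells and in the 3 layers, 1 point per library, with horizontal lines at the group means and bars of 1 SD (n = 3). In each library the points go up from Krt13-low to Krt13-high to Sprr2f-positive cells, from 456 to 1441 CPM in Cyto-ID Low F2 and from 250 to 520 CPM in Cyto-ID High F6.

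Levels went with the amount of Sprr2f. Cells with a deposited Sprr2f value above 3 had summed levels of 2536, 2994 and 1529 CPM in Low and 1778, 1988 and 725 CPM in High. Cells with Sprr2f above 0 and up to 3 had 847, 963 and 953 CPM in Low and 805, 908 and 425 CPM in High, and were below the cells with more Sprr2f in every library. Among Sprr2f-negative Krt13-high cells, those with Krt13 of 4 or more and those with Krt13 of 3 to 4 differed less: 794 against 804, 734 against 665 and 761 against 774 CPM in Low, and 685 against 658, 580 against 595 and 379 against 342 CPM in High.

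The higher level in Sprr2f-positive cells was carried by a subset of the effector genes and by Irf7. A gene's layer step is given here as its log2 difference between Sprr2f-positive and Krt13-low cells of the same library, averaged over 6 libraries, on the log2(CPM + 1) scale. Of the 19 members that averaged 5 CPM or more, 7 had a step over 2, against 2.50% of 8878 genes, and 10 were higher in Sprr2f-positive cells in all 6 libraries, against 11.6% of genes. The median step was 0.81 for the 19 members and -0.50 for all genes. These counts describe genes chosen with such a step in view and support nothing by themselves.

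Ifit1bl1, a member of the Ifit family of RNA-binding proteins, had the largest step, 4.38 ± 0.77 (SD, n = 6 libraries), rank 26 of the 8878 genes. Its level in Krt13-low cells was 6.65, 4.54 and 5.77 CPM in Low and 5.33, 7.18 and 2.76 CPM in High. In Sprr2f-positive cells it was 217, 241 and 124 CPM in Low and 159, 119 and 35.1 CPM in High. The layers did not overlap: the lowest Sprr2f-positive value was above the highest Krt13-low value.

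Ifit3b had a step of 4.07 ± 1.48 and Ifit3 of 3.54 ± 2.23 (SD, n = 6 libraries). Both belong to the same family. Ifit3 in Sprr2f-positive cells stood at 76.8, 160 and 61.0 CPM in Low and at 63.8 and 151 CPM in High F2 and M3, but no UMI was counted in the 141 Sprr2f-positive cells of High F6, where 3 counts correspond to 8.10 CPM. In Krt13-low cells Ifit3 lay between 0.614 and 6.71 CPM. Its step was therefore between 3.01 and 5.29 in 5 libraries and could not be measured as positive in High F6. Ifit3b in the same High F6 cells was at 6.18 CPM, also below that floor, so its step of 1.53 there is uncertain.

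Oasl1, an Oas-like protein known in mice to restrain translation of Irf7, had a step of 3.82 ± 0.53, and Irf7, the transcription factor that amplifies interferon production, a step of 3.15 ± 0.70 (SD, n = 6 libraries). Oasl1 in Sprr2f-positive cells was at 162, 83.2 and 75.2 CPM in Low and 110, 87.6 and 37.5 CPM in High, against 3.06 to 8.15 CPM in Krt13-low cells. Irf7 in Sprr2f-positive cells was at 95.6, 107 and 103 CPM in Low and 81.3, 126 and 21.5 CPM in High, against 4.68 to 10.9 CPM in Krt13-low cells. The Krt13-high layer already stood apart: the step from Krt13-low to Krt13-high cells was 2.85 for Oasl1 and 2.02 for Irf7, and was positive in all 6 libraries. That step was also positive in all 6 libraries for Ifit1bl1 (2.07), Ifit3b (1.81), Ifi44 (1.67), Ifit3 (1.53) and Isg15 (1.53).

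Isg15, which is attached to other proteins as a tag, had a step of 3.08 ± 0.90 (SD, n = 6 libraries). Its level was 29.3, 11.7 and 24.9 CPM (Low) and 21.6, 14.2 and 13.8 CPM (High) in Krt13-low cells, and 231, 271 and 153 CPM (Low) and 176, 201 and 52.0 CPM (High) in Sprr2f-positive cells. Ifi44 completed the 7, with a step of 2.84 ± 0.46. Ifit1, with a mean under 5 CPM, had a step of 3.01.

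The other members that averaged 5 CPM or more had steps of 1.04 or less. Ifi27, a small membrane protein and the member with the most UMIs, was at 189, 240 and 196 CPM (Low) and 160, 281 and 101 CPM (High) in Krt13-low cells and at 171, 226 and 185 CPM (Low) and 151, 267 and 132 CPM (High) in Sprr2f-positive cells, a step of -0.01. Among the 19 members, the lowest mean steps were those of the RNA sensor Ddx58 (-0.25 ± 0.42, SD, n = 6 libraries), the Isg15 protease Usp18 (-0.21 ± 1.32) and Ifi27. Even these lay above the median of -0.50 for all genes, at ranks 3046, 2817 and 1998 of 8878. The step of Usp18 was positive in the 4 F2 and M3 libraries and negative in both F6 libraries, and no Usp18 UMI was counted in Sprr2f-positive cells of High F6, so its place among the lowest is uncertain. Eif2ak2, the kinase PKR that stops translation on sensing double-stranded RNA, had a step of 0.04, Bst2, which tethers virus particles to the cell, 0.22, and Ifi35, 0.30. Parp9 and Dtx3l, which form a complex, had steps of 0.81 and 1.04. Samd9l (0.87), the RNA sensor Ifih1 (0.79) and the transcription factor Irf9 (0.68) lay in the same range. From Krt13-low to Krt13-high cells Bst2 had a step of 0.40, positive in all 6 libraries, against a median of -0.28 for all genes. Among members with a mean under 5 CPM, Zbp1, a sensor of Z-form nucleic acids, had a step of 2.27, Oasl2 of 2.23, Rtp4 of 1.65 and Xaf1 of 1.39, positive in 6, 5, 5 and 6 libraries.

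**Figure D2:**
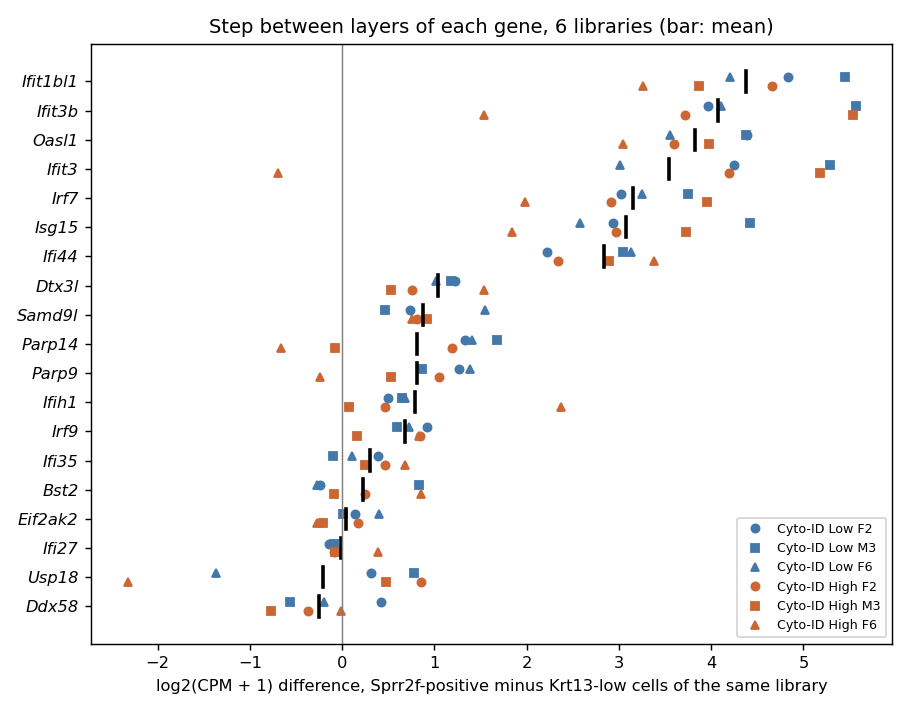
Step between layers (horizontal axis, log2(CPM + 1) in Sprr2f-positive minus Krt13-low cells of the same library) for the 19 members that averaged 5 CPM or more, 1 point per library and a bar at the mean of 6. The upper 7 genes have means over 2, and the point of Ifit3 below 0 is Cyto-ID High F6, where no Ifit3 UMI was counted in Sprr2f-positive cells.

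Within the Sprr2f-positive layer the high genes were unevenly spread over cells. Each cell was thinned to 1000 UMIs, and a cell was called strongly expressing when it held at least 5 UMIs of the 38 genes. By library, 17 to 56 Low cells and 10 to 115 High cells were too shallow and were left out. Strongly expressing cells made up 3.23%, 2.06% and 1.30% of all cells in Low (2.20% ± 0.97, SD, n = 3) and 1.68%, 0.893% and 0.160% in High (0.911% ± 0.760). Without thinning, cells with at least 5000 CPM of the 38 genes made up 1.64% ± 0.57 in Low and 0.636% ± 0.546 in High. In Sprr2f-positive cells the thinned shares were 6.92%, 9.45% and 5.03% (Low) and 5.39%, 6.16% and 1.43% (High). In Krt13-high cells they were 2.00%, 1.15% and 1.30% (Low) and 2.49%, 0.566% and 0.272% (High), so the F2 pair was higher in High. In Krt13-low cells they were 0.0665%, 0.0719% and 0.220% (Low) and 0.298%, 0.290% and 0.0638% (High). There the F2 and M3 pairs were higher in High, from only 6 such cells in Low and 16 in High. Pooled over libraries, 214 of the 263 strongly expressing cells in Low were Sprr2f-positive, 102 of them from F2, and in High 68 of 119. Of all thinned cells, 2847 of 11716 in Low and 1313 of 13091 in High were Sprr2f-positive, so the 2 groups differ in this base as well. In Sprr2f-positive cells of High F6 the share rests on 2 cells.

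Members differed in how far their UMIs were concentrated in these cells. For each gene, cells were selected by a fixed cut of 5 or more UMIs of the other 37 genes, so that a gene's own UMIs did not select its cells. Ifit3 and Ifit3b may be exceptions in part, since some of their reads match both genes. The list was also drawn up knowing that Ifit3b, Ifit1bl1 and Ifit3 led a small cell cluster in these data. Their high shares in few cells are therefore not independent of that choice. Of the 65 Ifit1 UMIs in Sprr2f-positive cells, 67.7% were in the cells with 5 or more UMIs of the other genes, which were 6.56% of the cells. Only 1 library reached 20 Ifit1 UMIs there, with a share of 74.3%. The shares were 59.8% for Ifit3, 54.1% for Ifit3b, 40.4% for Ifit1bl1 and 38.8% for Isg15. Zbp1 had 53.7% of its UMIs there, from 54 UMIs in all. Irf7 and Oasl1, also with large steps, had pooled shares of 25.7% and 23.1%. Some genes with smaller steps had shares like these or higher: Parp14 34.7%, Usp18 26.7%, Irf9 25.5% and Dtx3l 24.1%, and Bst2 42.9% of only 35 UMIs. Others had lower shares: Ifi35 15.7%, Parp9 15.3%, Samd9l 10.3%, Ifih1 10.3% of only 29 UMIs, and Ddx58 8.33%. Ifi27 (8.54% of UMIs in 6.08% of cells) and Eif2ak2 (8.45% in 6.71%) were spread almost in proportion to the cells. The thinned UMIs of 6 libraries were pooled for these shares, which are descriptions. Between libraries with at least 20 such UMIs, the share ranged from 54.7% to 68.2% for Ifit3 from 16.9% to 56.3% for Isg15, from 24.8% to 56.1% for Ifit1bl1, from 21.3% to 28.4% for Irf7 and from 17.7% to 28.6% for Oasl1, with the ranges of Irf7 and Oasl1 overlapping those of Isg15 and Ifit1bl1.

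**Figure D3:**
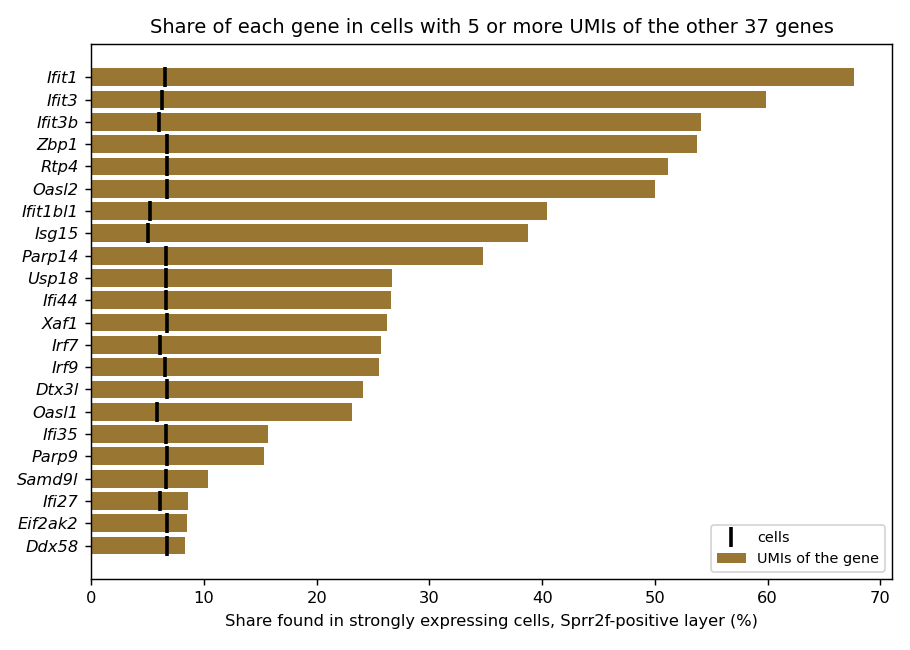
Share of each gene's UMIs (bars, %) and of cells (black marks, %) found in cells with 5 or more UMIs of the other 37 genes, in the Sprr2f-positive layer, cells thinned to 1000 UMIs and 6 libraries pooled, for genes with at least 40 UMIs. The bars run from 8.33% (Ddx58) to 67.7% (Ifit1), against 5.00% to 6.75% of cells.

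The sorted groups were then compared over all cells, which asks whether organoids from Cyto-ID High cells carry a different interferon-stimulated level than those from Cyto-ID Low cells. The summed level was 921, 738 and 656 CPM in Low (772 ± 135, SD, n = 3) and 591, 595 and 287 CPM in High (491 ± 176). The groups did not overlap, and High was below Low in each of the 3 label pairs. No test is given for this sum, since its genes were chosen with earlier results known. Fewer cells with such RNA and less of it per cell cannot be told apart in a mean over all cells, and the layers are separated below.

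Gene by gene, no member passed the threshold of adjusted p under 0.05 over all cells in limma, where 0.172% of 11645 genes did. All 20 of those genes were higher in High. So were all genes past the threshold within the layers below (30 in Krt13-low, 31 in Krt13-high and 7 in Sprr2f-positive cells). No gene at all was thus called lower in High in these fits. Of the 38 members, 31 had at least 1 CPM in 3 or more libraries and were tested. Dhx58 passed this filter through the Low libraries alone, so it had to be lower in High, and it is among the members counted as lower here. The other 7 members (Oas1a, Rsad2, Ifit2, Gbp3, Oas2, Trim30a and Cmpk2) had means of at most 0.829 CPM. At an unadjusted p under 0.05, 11 of the 31 were lower in High, against 3.44% of all genes, and none was higher, against 4.63%. The log2 difference was negative for 29 of the 31, against 50.4% of all genes, and its median was -0.56, against -0.0023 for all genes. In all 3 label pairs High was below Low for 25 of the 31, against 30.2% of all genes. With the label as a replicate block, 22 members were lower at that p (7.84% of all genes) and 1 was higher (8.18%). With summed UMIs in place of means over cells, 20 were lower (5.84%) and 1 was higher (5.51%). These counts carry no test, since the members were chosen with earlier results known and are measured in the same few libraries.

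Among the 12 most abundant members the Ifit genes, Isg15 and Irf7 had the widest differences. Ifit3b was at 38.3, 32.5 and 19.8 CPM in Low and 11.03, 10.6 and 1.67 CPM in High, a log2 difference of -1.98 ± 0.52 (SE), with adjusted p = 0.372 in limma. Ifit3 was at 37.2, 34.7 and 18.6 CPM in Low and 16.1, 16.1 and 0.784 CPM in High. For both, the groups did not overlap. F6 was the lowest library of each group, and in High it lay far below F2 and M3.

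Ifit1bl1 was at 104, 58.7 and 31.6 CPM in Low and 41.7, 17.7 and 4.38 CPM in High, with overlapping groups and High below Low in all 3 pairs. Its log2 difference was -1.76 ± 0.65 (SE), with adjusted p = 0.579 in limma. With the label as a replicate block the adjusted p was 0.0479, and Ifit1bl1 was then the only member to pass. Isg15 was at 121, 75.6 and 55.5 CPM in Low and 62.4, 35.2 and 20.1 CPM in High, a log2 difference of -1.05 ± 0.37 (SE), with adjusted p = 0.564 in limma and 0.0670 with the block.

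Irf7 was at 51.7, 32.2 and 37.8 CPM in Low and 28.8, 29.7 and 8.92 CPM in High, without overlap. Oasl1 was at 84.6, 26.5 and 28.3 CPM in Low and 37.0, 22.2 and 10.8 CPM in High, with Low F2 far above the rest. Samd9l was at 57.5, 40.5 and 56.6 CPM in Low and 46.9, 25.1 and 33.7 CPM in High. Their log2 differences lay between -0.87 and -0.46, none past the threshold.

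Eif2ak2, with a layer step of 0.04, was at 23.3, 15.2 and 21.2 CPM in Low and 14.2, 12.5 and 9.77 CPM in High, without overlap (log2 difference -0.56 ± 0.22, SE). Parp14, an ADP-ribosyl transferase, was at 15.7, 8.85 and 8.67 CPM in Low and 8.49, 3.92 and 4.95 CPM in High, also without overlap (-0.75 ± 0.27). Irf9 stood at 19.5, 12.2 and 15.9 CPM in Low and at 15.2, 8.95 and 9.12 CPM in High. Parp9 stood at 16.9, 11.5 and 12.7 CPM in Low and at 12.8, 8.21 and 6.14 CPM in High. For Irf9 and Parp9 the groups overlapped. So did those of Ddx58 (14.2, 11.3 and 14.5 CPM in Low, 12.1, 6.23 and 8.49 CPM in High) and of Usp18 (12.3, 8.23 and 11.5 CPM in Low, 8.50, 6.96 and 3.86 CPM in High).

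Ifi27 and Ifi35 showed no common direction. Ifi27 was at 180, 248 and 201 CPM in Low and 161, 284 and 102 CPM in High, lower in High in 2 pairs and higher in M3. Ifi35 was at 36.4, 57.5 and 40.8 CPM in Low and 33.6, 66.1 and 17.4 CPM in High, with the same pattern. Bst2 went the other way from most members: 8.09, 7.14 and 7.28 CPM in Low and 9.57, 9.05 and 10.2 CPM in High, without overlap, a log2 difference of 0.41 ± 0.18 (SE) with adjusted p = 0.619 in limma. The groups did not overlap for 7 tested members that were lower in High, Dhx58 among them, against 8.13% of genes, and for 1 (Bst2) that was higher, against 4.48%.

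The count of 11 members rested in part on single libraries. It was 1 without Low F2, where 1.30% of all genes were lower at that p, 4 without High F6 (1.45%) and 6 without Low F6 (1.69%). It was 15 without High F2 (4.76%), 14 without Low M3 (4.57%) and 15 without High M3 (9.56%). The share of all genes thus moved with the library left out as well.

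The mix of layers varied widely between libraries, and no layer's share passed a test between groups. Sprr2f-positive cells made up 41.7%, 17.5% and 15.0% of Low cells and 18.8%, 8.01% and 3.14% of High cells, a difference of -14.7 percentage points with p = 0.30 in a two-sided exact permutation test, for which 3 libraries against 3 allow no p below 0.10. High was lower in each of the 3 label pairs, and without Low F2 the difference was -6.24 points. A single Sprr2f UMI places a cell in this layer, so its share depends on depth. With each cell thinned to 1000 UMIs before Sprr2f was counted, an alternative added after seeing the data, the shares were 21.3%, 8.66% and 10.00% in Low and 9.80%, 5.31% and 2.19% in High (difference -7.56 points, exact permutation p = 0.20). The groups overlapped at both depths, and High was lower in each pair. As a background, among cells without a Krt13 UMI, 24.6%, 5.93% and 5.14% in Low and 9.32%, 2.49% and 0.683% in High had a Sprr2f UMI at full depth. Their median depths were 6637, 4470 and 2195 UMIs in Low and 8563, 1843 and 1790 UMIs in High. After thinning, this background was 5.15%, 2.09% and 2.98% in Low and 2.53%, 1.90% and 0.374% in High. Krt13-low cells made up 42.6%, 49.9% and 52.5% of Low and 61.8%, 48.0% and 71.6% of High (exact permutation p = 0.30). Krt13-high cells made up 15.7%, 32.6% and 32.5% of Low and 19.4%, 43.9% and 25.2% of High (exact permutation p = 0.90).

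The difference in the summed level could be divided into a part from layer mix and a part from levels within layers, with layers taken at full depth. Of the difference of -281 CPM between the group means, layer mix made up -108 CPM and levels within layers -174 CPM, with a remainder of 0.844 CPM. By label pair, mix and within-layer parts were -187 and -143 CPM in F2, -71.0 and -72.6 CPM in M3 and -74.5 and -295 CPM in F6. Both parts were negative in every pair, and the within-layer part was the larger by far in F6 alone. Without High F6 the total was -179 CPM and the within-layer part -77.9 CPM. Without Low F2 the mix part was -54.1 CPM.

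**Figure D4:**
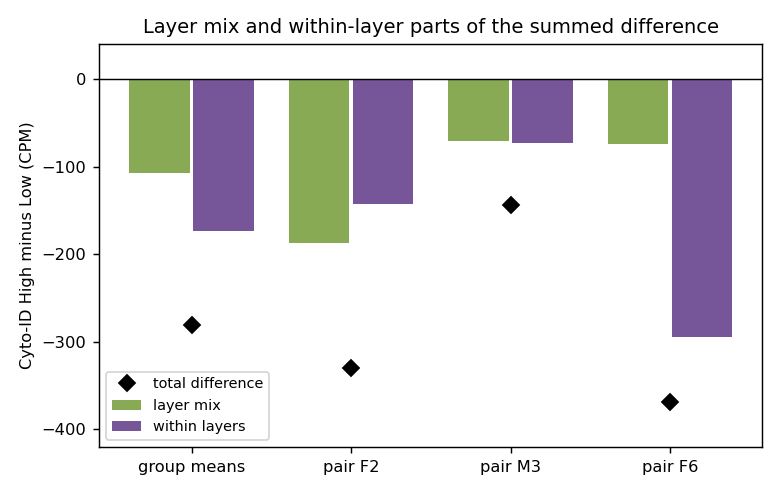
Difference in the summed level of the 38 genes, Cyto-ID High minus Low (vertical axis, CPM), divided into layer mix (green bars) and levels within layers (purple bars), with diamonds at the total, for the group means and each label pair. All bars lie below 0, and the within-layer bar of pair F6 reaches -295 CPM.

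Single genes divided differently. For Isg15 the parts were -22.7 CPM (mix) and -22.1 CPM (within), and for Ifit1bl1 -20.4 and -23.4 CPM. Irf7 had -11.2 CPM from mix and -8.84 CPM from within, of which the within part was 4.87 CPM in the M3 pair and -20.3 CPM in the F6 pair. Eif2ak2 had -0.163 CPM from mix and -7.70 CPM from within. Ifi27 had 1.15 CPM from mix and -26.2 CPM from within, of which the M3 pair went the other way (32.8 CPM).

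Within Krt13-low cells the median difference between groups was the smallest of the 3 layers. No member passed the threshold in limma, where 0.256% of 11702 genes did, and 29 members were tested. At an unadjusted p under 0.05, 1 was lower in High (Ifit3b, against 2.86% of genes) and 1 higher (Bst2, against 4.4% of genes). The median log2 difference was -0.17, against -0.00018 for all genes, and it was negative for 24 of the 29, against 50.0% of genes. With cells thinned to 1000 UMIs it was negative for 16 of 27, with a median of -0.13. Bst2 was at 8.24, 5.52 and 6.19 CPM in Low and 8.93, 8.69 and 8.58 CPM in High. Eif2ak2 was at 22.3, 14.5 and 19.97 CPM in Low and 13.5, 12.3 and 10.3 CPM in High. Neither overlapped between groups. Ifit3b was at 4.19, 2.03 and 3.87 CPM in Low and 2.18, 0.814 and 1.48 CPM in High, with overlap, as for Usp18 and Irf9. In all, 2 tested members, Eif2ak2 and Gbp2, lay below Low without overlap (9.64% of genes) and 1, Bst2, above it (3.91% of genes). The count of 1 lower at an unadjusted p under 0.05 was 0 without Low F2 (1.30% of genes), Low F6 (1.72%) or High F6 (1.23%), 3 without Low M3 (3.03%) and 4 without High M3 (6.63%). The count of 1 higher was 0 without High F2 (4.40%), Low M3 (4.31%), Low F6 (2.74%) or High F6 (2.33%). It was also 0 with thinned cells (3.90%), a Krt13 boundary of 2 (4.36%) or 4 (4.17%), or no filter on low values (3.78%). The count lower was 0 with a pseudocount of 0.1 CPM (2.81%) and 2 with a Krt13 boundary of 4 (2.77%). With the replicate block, 2 were lower (6.35%) and 1 was higher (7.43%). Without TMM factors, which scale libraries to each other, 3 were lower (5.33%) and none higher (2.46%), and in cells with at least 1000 genes 3 were lower (3.31%) and 1 higher (4.53%).

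Within Krt13-high cells Ifit3, Ifit1bl1 and Ifit3b had the largest differences. No member of 30 tested passed the threshold in limma, where 0.278% of 11170 genes did. At an unadjusted p under 0.05, 5 were lower in High, against 2.69% of genes: Ifit3b, Ifit3, Ifit1bl1, the RNA sensor Dhx58 (LGP2) and Herc6, a ligase that attaches Isg15. None was higher, against 4.02% of genes. In this layer Dhx58 and Herc6 were below 1 CPM in every High library and entered the test through the Low libraries alone, so they had to be lower in High. The log2 difference was negative for 28 of the 30, against 50.5% of genes, with a median of -0.48. The groups did not overlap for 5 members lower in High (8.93% of genes), Dhx58 and Herc6 among them, and for none higher (4.02% of genes). Ifit3 was at 24.1, 15.6 and 18.4 CPM in Low and 13.1, 5.69 and 1.37 CPM in High (log2 difference -1.63 ± 0.50, SE, limma adjusted p = 0.461), without overlap. Ifit3b was at 19.2, 19.8 and 16.4 CPM in Low and 10.6, 8.08 and 1.65 CPM in High (-1.47 ± 0.45, SE, limma adjusted p = 0.450), also without overlap. Ifit1bl1 was at 65.3, 43.8 and 31.0 CPM in Low and 44.1, 10.9 and 5.15 CPM in High. Here Irf7 was at 45.8, 30.4 and 53.0 CPM in Low and 38.1, 36.7 and 19.4 CPM in High, with overlap. In place of the 5, there were 2 without Low F2 (1.19% of genes), 3 without Low F6 (1.48%), 9 without High F2 (3.34%), 9 without High M3 (5.54%) and 12 without Low M3 (3.89%). With the replicate block, 13 were lower (6.14%), and 9 with summed UMIs (3.90%) or without TMM factors (4.48%). A Krt13 boundary of 4 gave 3 lower (3.14%) and 1 higher (4.29%).

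Within Sprr2f-positive cells the same direction was seen with wider spread. No member of 31 tested passed the threshold in limma, where 0.0622% of 11246 genes did. At an unadjusted p under 0.05, 3 were lower in High, against 1.81% of genes: Parp14, Ifit3b and Zbp1. None was higher, against 1.68%. The difference was negative for 25 of the 31, against 58.2% of genes. The groups did not overlap for 3 members lower in High (5.84% of genes), Parp14, Zbp1 and Oasl2, and for none higher (2.31% of genes). Parp14 was at 24.6, 19.2 and 16.4 CPM in Low and 15.0, 4.25 and 2.38 CPM in High (log2 difference -1.59 ± 0.50, SE, limma adjusted p = 0.938), without overlap. Ifit3b was at 80.2, 143 and 82.8 CPM in Low and 40.6, 82.9 and 6.18 CPM in High, with overlap. Zbp1 was at 11.5, 15.7 and 10.0 CPM in Low and 8.64, 5.27 and 4.22 CPM in High, without overlap. The High F6 values of Parp14, Ifit3b, Zbp1 and Oasl2 (0 CPM for Oasl2) are below the 8.10 CPM that 3 counts correspond to in that library. The median log2 difference was -0.50, against -0.09 for all genes, and without High F6 it was -0.13. The 141 cells of that library gave 173 UMIs of the 38 genes. The count of 3 was 1 without Low F6 (0.559% of genes) or High F6 (0.928%), 2 without Low F2 (0.570%) or Low M3 (1.06%), 5 without High F2 (7%) and 8 without High M3 (5.72%). With the replicate block it was 5 (3.47%), and with summed UMIs 6 (2.53%). Bst2 was at 6.81, 10.6 and 4.96 CPM in Low and 10.8, 8.14 and 16.3 CPM in High, with overlap.

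**Figure D5:**
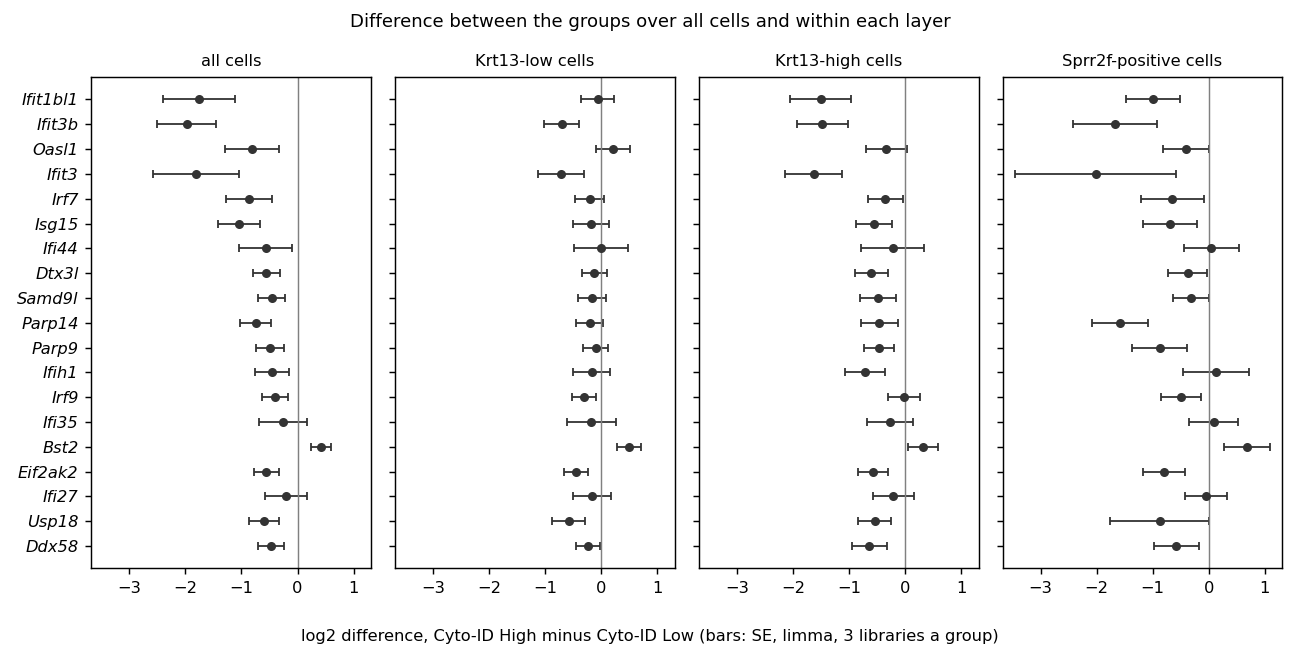
Log2 difference between groups (horizontal axis, Cyto-ID High minus Low, log2(CPM + 1) scale, bars of 1 SE from limma, 3 libraries a group) over all cells and in each layer, for the 19 members that averaged 5 CPM or more, in the order of their layer step. Ifit1bl1 (-1.76), Ifit3b (-1.98) and Ifit3 lie farthest below 0 over all cells, and Bst2 lies above 0 in each panel.

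Whether the layer step itself differed between groups was tested for each gene. No member of 32 tested passed the threshold in limma, where 0.0% of 12211 genes did. At an unadjusted p under 0.05 the step was smaller in High for 2 members, against 1.95% of genes: Parp14 (difference of steps -1.38 ± 0.52, SE) and Ifit1bl1 (-0.91 ± 0.40, SE), both with limma adjusted p = 0.933. It was larger in High for none, against 1.03% of genes, and the difference was negative for 24 of the 32, against 56.5%. The median difference was -0.32 for the members and -0.06 for all genes, and without High F6 it was -0.02 for the members. The count of 2 was 0 without Low M3 (0.804% of genes), 1 without Low F2 (1.14%), Low F6 (0.572%) or High F6 (1.47%), 3 without High F2 (9.65%) and 6 without High M3 (3.04%). It was 0 in cells with at least 1000 genes (1.04%) and with the Sprr2f boundary at 3 (2.43%), both without High F6. It was 1 with thinned cells (3.67%), a Krt13 boundary of 4 (1.88%), a pseudocount of 0.1 CPM (1.55%) or no filter on low values (2.25%). The steps of Parp14 were 1.33, 1.67 and 1.41 in Low and 1.20, -0.07 and -0.67 in High, the last from a Sprr2f-positive level below 3 counts.

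Interferons themselves were almost absent from the counts. Of 21 ligand genes, 13 were at 0 in every library, among them Ifng and Ifnk, and the summed level of all 21 lay between 0.0541 and 0.574 CPM. Ifne, a type I interferon of epithelia, had the highest mean, 0.215 CPM, and Ifnz the next, 0.0683 CPM. Ligand messages at this depth of sequencing were therefore barely detectable, and this was measured at day 15 only.

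The receptors and signalling genes were detected. Of 17, 16 were tested over all cells and none passed the threshold in limma, with a median log2 difference of -0.26. Jak1 had the highest mean (92.2 CPM in Low, 76.4 CPM in High), then Ifngr1 (68.9 and 43.9 CPM). Ifnar1 and Ifnar2, the receptor chains for type I interferon, were at 11.1 and 47.4 CPM in Low and 9.26 and 35.1 CPM in High. The steps of Ifnar2 and Ifnar1 were -1.05 and -0.54, against a median of -0.50 for all genes, and that of Ifngr2, a receptor chain for interferon gamma, was 1.38. These receptor genes are given for their role in the pathway. In the nucleic acid sensing list, 9 of 11 genes were tested and none passed in limma (median -0.13). Its most abundant gene was Trim25, which activates RIG-I, at 78.7 CPM in Low and 44.0 CPM in High, followed by Samhd1 at 24.6 and 23.7 CPM.

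Other interferon targets were lower in High in the median, as the members were, and the few whose layer steps are given here differed in direction. Of 40 further type I targets, 29 were tested and none passed the threshold in limma. At an unadjusted p under 0.05, 5 were lower in High (3.44% of all genes) and 1 was higher (4.63%), and the median log2 difference was -0.33, against -0.0023 for all genes. Ifitm3, a membrane protein that blocks virus entry, was the most abundant (1282 CPM in Low, 1132 CPM in High) and ran opposite to the summed level of the members across layers, with a step of -1.70. Shisa5 was the next, at 120 CPM in Low and 87.8 CPM in High. Cxcl10, a chemokine, was the gene higher in High (2.04 against 4.27 CPM, log2 difference 0.75) and had a step of -1.50. Apol9a and Cd274 (PD-L1) had steps of 2.73 and 2.50 at means of 3.99 and 3.58 CPM. Cxcl10, Apol9a and Cd274 were named after their values were seen. Of 18 class I antigen presentation genes, 16 were tested and none passed in limma, with a median log2 difference of -0.32. H2-K1 was at 274 CPM in Low and 186 CPM in High, and H2-D1 at 238 and 150 CPM. Of 22 interferon gamma targets, 2 were tested, H2-Ab1 and Irgm1, and neither passed in limma.

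Several values moved beside the group difference. The summed immune markers lay between 16.3 and 26.8 CPM in Low and between 9.35 and 16.5 CPM in High, nearly all of it Cd68 and Itgam, which were also higher in Sprr2f-positive cells (steps of 1.29 and 2.66), while Ptprc and Tyrobp were at 0 in every library. Summed fibroblast markers were at most 4.95 CPM and endothelial markers at most 0.854 CPM. The summed superficial markers, Sprr2f among them, lay between 9883 and 26046 CPM in Low and between 3382 and 15531 CPM in High. The 4 suprabasal markers held the only marker genes past the threshold. Krtdap, a secreted protein of differentiating keratinocytes, was at 97.3, 59.8 and 28.7 CPM in Low and 844, 793 and 1504 CPM in High over all cells and rose in High (log2 difference 4.26 ± 0.43, SE, limma adjusted p = 0.00800). It also rose in High in Krt13-low, Krt13-high and Sprr2f-positive cells (limma adjusted p = 0.0105, 0.0148 and 0.0189). Sbsn rose in High in Krt13-high cells (limma adjusted p = 0.00715), with log2 differences of 1.66 over all cells, 1.19 in Krt13-low and 2.27 in Sprr2f-positive cells that did not pass. Krt13 and Krt4 passed in none. The part of these markers in the members' results was not tested. The part of depth in these results was not tested beyond the thinned cells, in which 9 members were lower (2.91% of all genes) and 1 higher (4.42%) in High at an unadjusted p under 0.05 over all cells.

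The genes outside the list whose levels were most alike to the summed level were taken by Pearson's r over 18 values, 3 layers in each of 6 libraries, among 8859 genes that averaged 5 CPM or more. The 18 values share libraries and layers, so r is a description. The 10 were Cd82 (r = 0.966), Vtcn1 (0.965), Myl12b (0.958), Sdcbp2 (0.950), Sqstm1 (0.948), Gde1 (0.946), Cblc (0.945), Cited2 (0.943), Golm1 (0.941) and Suds3 (0.936). Among them Sqstm1 encodes the autophagy receptor p62 and Vtcn1 the immune checkpoint protein B7-H4. Sqstm1 had mean levels of 77.5 CPM in Krt13-low, 115 CPM in Krt13-high and 204 CPM in Sprr2f-positive cells. Of the members, Ifit3b (0.957) and Ifit1bl1 (0.956) were closest to the sum, of which they are part.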

How the data were processed

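Single-cell RNA was measured in 6 libraries of esophageal organoid cells. The authors deposited 1 table per library of natural log values (ln of 1 + UMIs per 10000 of the cell's total), which the values show, since every cell sums to 10000 on the linear scale. Cell Ranger 6.0.0, Seurat 4 and GRCm38 (mm10) are named per the submitters' processing notes, and other steps are not given in the sources used here. No cell exceeded 9.998% mitochondrial UMIs, and no doublet caller was run.

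UMIs were recovered from the values (100% whole within 1e-06). Cells with fewer than 500 genes were left out. Mean CPM over cells, per library and layer, was scaled by TMM factors (trims of 30% and 5%) and log2(CPM + 1) was tested with limma 3.58.1 in R 4.3.3 (trend, Benjamini-Hochberg over all genes with at least 1 CPM in 3 libraries, threshold 0.05). CPM printed in the text is without TMM factors. No count model was used. The script was tested on simulated data. A layer needed at least 50 cells in a library.

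Same-label libraries deviated together over all cells (r = 0.761 for F2, 0.577 for M3, 0.147 for F6, across 8878 genes). Label pairs are therefore described, but the main limma fits and permutation tests ignore the label. Only the replicate block includes it. In Sprr2f-positive cells r for F6 was 0.072. Blocked values are printed where they change a call or move a count by over 1.5 times. The members and gene lists were chosen with earlier results of these data known. Every library's value is given for the 12 most abundant members, for those past a threshold, for the 3 smallest p in each direction at 5 CPM or more, and for the 3 largest and smallest layer steps. Lists give the 2 most abundant genes. The floor of 3 counts covers counting error only, while each SD and SE printed is between libraries.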

Additional observations from a re-analysis of the deposited data

How the results depend on the processing

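The count of members past the threshold over all cells was 0 in 12 of 13 alternatives and 1 (Ifit1bl1, log2 difference -1.7576) with the replicate block. It stayed at 0 within each layer and for the layer step in all 16 alternatives each, of which the 2 other Krt13 boundaries leave the Sprr2f-positive cells as they are and test nothing there, and the block changed no other member's call. Leaving out each library in turn gave 0 to 0 members in each of these comparisons. Over all genes the calls ran from 0 to 68 over all cells (20 as reported), from 1 to 86 in Krt13-low (30), from 1 to 82 in Krt13-high (31) and from 0 to 11 in Sprr2f-positive cells (7), the highest each with the block, and stayed at 0 for the step. Without TMM factors the median of all genes moved to -0.10 over all cells and to -0.14, -0.11 and -0.17 in the 3 layers (Krt13-low, Krt13-high, Sprr2f-positive), and that of the tested members to -0.66, -0.32, -0.59 and -0.58. Leaving out single libraries moved the summed difference between -339 and -179 CPM, its mix part between -150 and -54.1 CPM and its within-layer part between -235 and -77.9 CPM. Without Ifi27, an alternative added after seeing the data, these were -254, -109 and -148 CPM. The Krt13-high share difference had no stable sign: 2.60 points as reported, -3.11 with the Sprr2f boundary at 3 and -4.61 to 7.66 without single libraries. The Sprr2f-positive share difference was -5.02 points with that boundary. In fits that left fewer than 50 Sprr2f-positive cells in High F6 (at least 1000 genes, or Sprr2f above 3), that library was left out.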
